A study of Mus musculus with 5 samples.

Results

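Interferon-stimulated genes are the antiviral genes that cells switch on after they sense interferon. A list of 36 such mouse genes was followed through an array study of pro-B cells with floxed alleles of the transcription factor gene Ebf1. The members were taken as every probe whose gene symbol in the platform annotation is on the list. Of the 36 genes, 34 had a named probe, with 55 probes among 33653 probes that name 1 gene, and all 34 passed the brightness filter described below. Ifi44 and Dtx3l had no named probe, so their levels were not analysed here.

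Pro-B cells, the early precursors of B cells, were grown out of mouse fetal livers taken at 16.5 days post coitum, with interleukin-7 and with OP-9 cells, a line of bone marrow stroma. The deleted cultures had both Ebf1 alleles floxed (genotype Ebf fl/fl, 3 arrays, called deleted 4, deleted 5 and deleted 7 after the last number of their titles). The controls had 1 floxed allele, which Cre can also delete (genotype Ebf+/fl, 2 arrays, control 3 and control 6). All 5 cultures received 4-hydroxytamoxifen for 24 hours, which activates Cre fused to an oestrogen receptor, and were kept for 4 more days. The first number of the titles is 93 in every deleted and 111 in every control sample, so whatever that number marks cannot be told apart from genotype. Nothing in the labels says that a group's cultures were from different embryos, so the p-values measure only the spread between these samples, which may be technical.

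Type I interferons bind a receptor made of IFNAR1 and IFNAR2, whose kinases JAK1 and TYK2 activate transcription factors. STAT2 and IRF9 act there together and bind the interferon-stimulated response element in the promoters of their targets. The targets include sensors of viral RNA, enzymes that degrade RNA or deplete nucleotides, GTPases that trap virus particles, and the ubiquitin-like protein ISG15 with the enzymes that attach and remove it.

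Levels are log2 intensities minus the 75th percentile of the same array, each gene read at its brightest probe. Groups were compared with limma, and p-values were adjusted by the Benjamini-Hochberg method over all 13419 genes in which at least 2 arrays exceeded their 40th percentile. A fold change sets deleted over control cells, and SE is its standard error. The threshold was an adjusted p of 0.05, which 1151 genes passed upward and 1173 downward. The deleted arrays had 75th percentiles of 306 to 430 in raw intensity and the controls 396 to 418. The number of arrays limits the precision. The Ebf1 probe for AK036716 stood at -4.19, -5.01 and -4.02 in deleted 4, 5 and 7, against -1.47 and -1.30 in control 3 and 6, whereas the brightest Ebf1 probe had a log2 fold change of only -0.25 (SE 0.15, limma adjusted p = 0.301 over 22647 probes). Of the B-lineage markers listed, 11 of 12 had a probe, none of these was dark in every array, and 6 were lower in deleted cells and 0 higher.

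Samhd1, Ifit3, Sp100 and Mx2 rose in deleted cells, no member fell by limma's adjusted p, and 30 members did not pass. The 4 of 34 that rose stand beside 8.58% of all genes tested that rose, and the 0 that fell beside 8.74% that fell. At an unadjusted p under 0.05 in limma, 3 members lay lower (Oas1a, Oas3 and Ifit2), and Rtp4 and Ifi35 joined the 4 that lay higher. The share of all genes at that looser threshold is not given here, so these members are only listed. In 9 members every deleted array lay above both controls, as in 30.5% of all genes, in 4 every one lay below, as in 21.2%, and in 21 the groups overlapped. With every probe fitted, 7 of the 46 member probes tested were higher, beside 6.84% of all probes, and 0 lower, beside 7.69%. The higher ones were every Sp100 probe and probes of Samhd1, Ifit3, Mx2 and Trim30a, so they are not separate counts of genes. The median log2 fold change of the members was 0.04, against 0.10 over all genes tested, with 19 members above zero and 15 below. A change of at least 2-fold in either direction was seen in 6 of 34 members, against 17.8% of all genes. In bulk RNA, fewer cells that express a gene and less RNA of it per cell cannot be told apart.

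**Figure D1:**
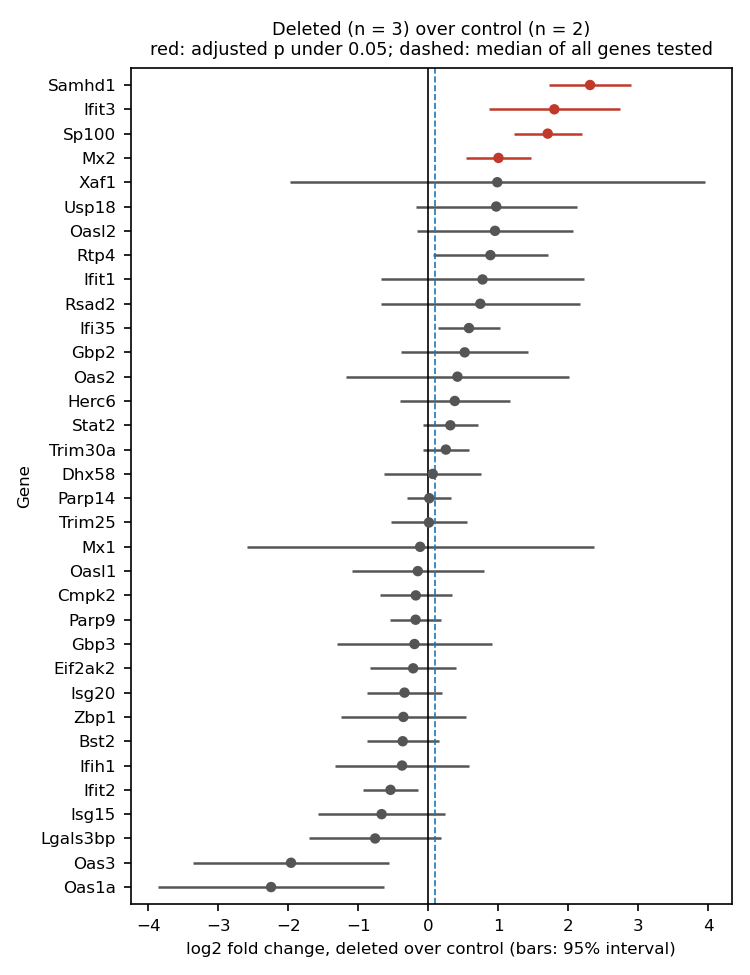
Log2 fold change (deleted, n = 3, over control, n = 2; horizontal axis) of the 34 measured interferon-stimulated genes (vertical axis), with points for estimates, bars for 95% intervals, red for an adjusted p under 0.05 and a dashed line at the median of all genes tested, 0.10. Samhd1, Ifit3, Sp100 and Mx2 are red, and Oas1a lies at -2.25. The point of Oas3 is not a measured size, since Oas3 was under the 40th percentile in all 3 deleted arrays.

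Samhd1, which hydrolyses the nucleotides that viruses need to copy their genomes, had levels of 3.67, 3.46 and 3.32 in deleted 4, 5 and 7, against 0.79 and 1.56 in control 3 and 6. The deleted arrays lay close together and far above both controls. Samhd1 thus rose 4.96-fold (log2 fold change 2.31, SE 0.25, adjusted p = 0.0027). It was the largest increase on the list, and it passed under all 16 alternative settings, with log2 fold changes from 1.93 to 2.69.

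Sp100, a scaffold protein of PML nuclear bodies, stood at 2.06, 2.61 and 2.16 in deleted 4, 5 and 7, against 0.47 and 0.68 in control 3 and 6. No deleted array came near a control. Sp100 rose 3.26-fold (log2 fold change 1.70, SE 0.20, adjusted p = 0.0039). The remaining Sp100 probes rose by 1.66 and 1.34 on the log2 scale, both past the threshold when all probes were fitted (limma adjusted p = 0.0020 and 0.044), and Sp100 also passed under all 16 alternatives.

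Ifit3, a member of the antiviral IFIT family, reached 0.34, 1.37 and 1.73 in deleted 4, 5 and 7, against -0.73 and -0.58 in control 3 and 6. The deleted arrays were spread over more than 1 log2 unit, with deleted 4 lowest, yet each lay above both controls. Ifit3 rose 3.48-fold (log2 fold change 1.80, SE 0.39, adjusted p = 0.026). Its call was lost without deleted 5 (limma adjusted p = 0.09), control 3 (0.137) or control 6 (0.0777). Ifit3b is a close copy of Ifit3, and a probe may not separate them.

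Mx2, a dynamin-like antiviral GTPase, was at 0.53, 0.87 and 1.02 in deleted 4, 5 and 7, against -0.095 and -0.29 in control 3 and 6. The groups did not overlap, and Mx2 rose 2.00-fold (log2 fold change 1.00, SE 0.20, adjusted p = 0.019). Its call was lost without deleted 5 (limma adjusted p = 0.061), control 3 (0.0747) or control 6 (0.0794). Without any of these 3 arrays the count of higher members was 2, namely Samhd1 and Sp100, beside 4.47% of genes higher without deleted 5, 2.97% without control 3 and 5.48% without control 6.

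**Figure D2:**
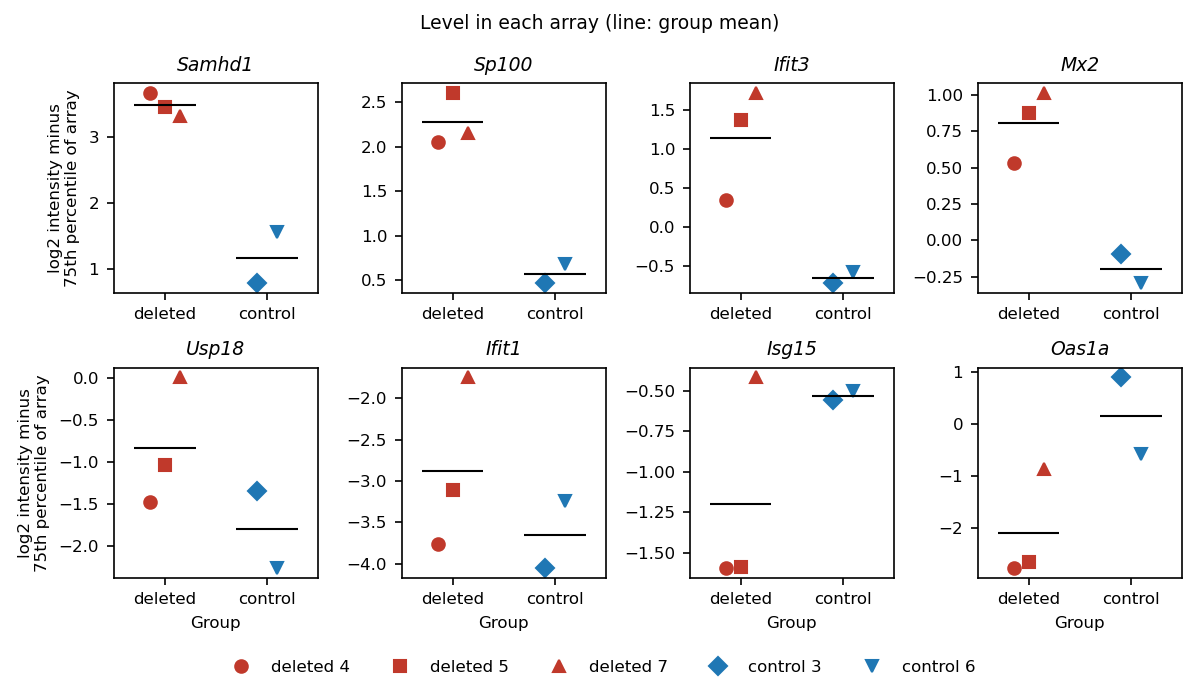
Level of 8 genes in each array (vertical axes, log2 intensity minus the 75th percentile of the array; horizontal axes, group; markers, arrays; lines, group means). Samhd1, Sp100, Ifit3 and Mx2 separate the groups, whereas for Usp18, Ifit1 and Isg15 deleted 7 lies apart from deleted 4 and deleted 5.

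Promoter sequences are shown to set the motif known for interferon-stimulated genes beside these changes. RefSeq windows (build GRCm38.p6, from 250 bases before to 50 bases after a gene's start) were found for 27 of the 36 genes. These include Ifi44 and Dtx3l, which had no named probe and whose windows held neither of the motifs below. The core of the response element, read as GAAA, any 2 bases and GAAA again and searched on both strands, occurred in 13 of these 27 genes (48.1%), against 415 of 10831 tested genes with a window (3.83%) and 1131 of all 32851 windows (3.44%). The gamma-activated site TTCNNNGAA, which reads alike on both strands, occurred in 7 of 27 (25.9%), against 8.34% of tested genes and 8.30% of windows. The motifs share letters and can overlap each other. Of the 4 genes that rose, Ifit3 had a match to the core, the windows of Samhd1 and Sp100 had none, and Mx2 has no window in the table. Isg15, Ifit1 and Oas1a, which did not pass, had matches too. Each line gives 120 bases upstream of the gene start, 5′ to 3′ on the gene's strand. The stretch ends 75 bases before the start in Ifit3, 8 in Isg15, 31 in Ifit1, 1 in Oas1a and 131 in Samhd1. Capitals mark matches to the core, which read TTTC, 2 bases and TTTC where they lie on the other strand, and TTCNNNGAA in Samhd1. The Oas1a line holds a TTCNNNGAA match too, starting at position -98 and left in lower case.
Ifit3 (chr19:34583335-34583454, plus strand): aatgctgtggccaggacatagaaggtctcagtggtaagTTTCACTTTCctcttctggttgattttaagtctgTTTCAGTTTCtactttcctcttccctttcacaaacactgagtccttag
Isg15 (chr4:156200826-156200945, minus strand): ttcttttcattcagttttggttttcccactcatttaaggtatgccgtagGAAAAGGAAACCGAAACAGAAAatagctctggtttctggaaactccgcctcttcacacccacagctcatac
Ifit1 (chr19:34640739-34640858, plus strand): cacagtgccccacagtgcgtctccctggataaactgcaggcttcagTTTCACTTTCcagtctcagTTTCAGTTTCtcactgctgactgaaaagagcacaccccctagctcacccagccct
Oas1a (chr5:120907526-120907645, minus strand): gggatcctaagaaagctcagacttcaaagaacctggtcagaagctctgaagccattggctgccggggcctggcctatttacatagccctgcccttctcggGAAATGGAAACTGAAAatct
Samhd1 (chr2:157135227-157135346, minus strand): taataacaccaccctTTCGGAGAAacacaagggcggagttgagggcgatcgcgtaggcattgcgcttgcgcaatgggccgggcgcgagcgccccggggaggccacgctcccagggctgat
Isg15 has 3 overlapping matches in a row, and in Ifit3 and Ifit1 a pair of matches stands apart. These are matches of letters only.

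The OAS genes encode enzymes that make the messenger that activates RNase L, or relatives of them, and none passed. Oas1a was at -2.76, -2.65 and -0.86 in deleted 4, 5 and 7, against 0.90 and -0.58 in control 3 and 6. All deleted arrays lay below both controls, but deleted 7 came close to control 6. The log2 fold change was -2.25 (SE 0.67, 95% interval -3.86 to -0.63, adjusted p = 0.067), and with 1 array left out it ran from -2.99 to -1.51. It passed only without deleted 7 (-2.86, limma adjusted p = 0.019) and was smallest without control 3 (-1.51, adjusted p = 0.343). In the fit without deleted 7, 2 members were lower, Oas1a and Isg15, beside 7.84% of genes. Oas1a has close copies whose transcripts may reach the same probe. Oas3 lay at -6.99, -6.07 and -5.77 in deleted 4, 5 and 7, under the 40th percentile of each array, against -3.73 and -4.90 in control 3 and 6. With that percentile as the lower limit, Oas3 was at least 2.20-fold lower in deleted cells, without passing (adjusted p = 0.065), and a second, dim Oas3 probe gave a log2 fold change of 0.57. The mean of both probes gave -0.70 (limma adjusted p = 0.424). Without control 6 the dim probe was the brighter one and gave -0.40 (adjusted p = 0.723), and without control 3 Oas3 failed the filter. With array weights Oas3 was the 1 member that passed downward, beside 10.1% of genes. Oas2 (log2 fold change 0.41, SE 0.67) and Oasl1 (-0.15, SE 0.39) had overlapping groups. Oasl2, which was at -1.65, -1.93 and -0.42 in deleted 4, 5 and 7 against -2.01 and -2.56 in control 3 and 6, had one of 0.95 (SE 0.47, adjusted p = 0.21).

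In the ISG15 system no member passed. Isg15 itself stood at -1.59, -1.59 and -0.42 in deleted 4, 5 and 7, against -0.56 and -0.50 in control 3 and 6. Deleted 4 and 5 were low and deleted 7 lay level with the controls. The log2 fold change was -0.67 (SE 0.38, 95% interval -1.58 to 0.24, adjusted p = 0.27), and with 1 array left out it ran from -1.06 without deleted 7 (limma adjusted p = 0.031) to -0.47 without deleted 4 (0.504). Usp18, which removes ISG15 from proteins and dampens interferon receptor signalling, showed -1.48, -1.04 and 0.01 in deleted 4, 5 and 7, against -1.34 and -2.27 in control 3 and 6. Its groups overlapped through deleted 4 (log2 fold change 0.97, SE 0.48, adjusted p = 0.21). Herc6, the mouse ligase for ISG15, had a log2 fold change of 0.38 (SE 0.33), but another Herc6 probe gave -1.18. Trim25, a ligase that also acts in RIG-I signalling, had 0.01 (95% interval -0.53 to 0.54) at its brightest probe and 0.55 at the next brightest.

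No gene of the RNA-sensing group passed at its brightest probe. For Ifih1 and Dhx58, which encode the RIG-I relatives MDA5 and LGP2, the log2 fold changes were -0.38 (95% interval -1.33 to 0.58) and 0.06 (-0.63 to 0.76). Eif2ak2, the RNA-activated kinase PKR, had -0.22 (-0.83 to 0.39), and Zbp1, a sensor of Z-form nucleic acids, had -0.36 (-1.25 to 0.54). Trim30a, a TRIM-family regulator, had 0.25 (-0.08 to 0.58) at its brightest probe, while its second probe rose by 0.72 (limma adjusted p = 0.036 over all probes). Stat2, the transcription factor gene on the list, stood at 2.00, 2.42 and 2.19 in deleted 4, 5 and 7, against 1.91 and 1.87 in control 3 and 6. These ranges did not overlap, yet the change of 0.31 (SE 0.16, adjusted p = 0.235) did not pass.

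The other effectors gave mixed values. Ifit1, a cap-binding blocker of viral translation, was at -3.77, -3.11 and -1.75 in deleted 4, 5 and 7, against -4.05 and -3.24 in control 3 and 6 (log2 fold change 0.77, SE 0.61, adjusted p = 0.43). Ifit2 was at -0.72, -0.77 and -0.55 in deleted 4, 5 and 7, against -0.12 and -0.16 in control 3 and 6, a difference of -0.54 (SE 0.17, adjusted p = 0.071). Ifit1 overlapped between the groups, Ifit2 lay below the controls in every deleted array, and Ifit3 lay above them. Rtp4, a chaperone-like gene, was at 2.81, 3.10 and 4.01 in deleted 4, 5 and 7, against 2.55 and 2.29 in control 3 and 6 (log2 fold change 0.89, SE 0.34, adjusted p = 0.13). Ifi35 had one of 0.58 (SE 0.19, adjusted p = 0.079) with no overlap. The guanylate-binding proteins Gbp2 and Gbp3 had 0.52 and -0.20, and Bst2, the tetherin that holds virus particles on the cell surface, had -0.37 (95% interval -0.88 to 0.15). Isg20, an RNA exonuclease, had -0.34 (-0.88 to 0.20), Cmpk2, a mitochondrial nucleotide kinase, -0.18 (-0.69 to 0.33) at its brightest probe and -1.21 at its second, and Lgals3bp, a secreted galectin-binding protein, -0.76 (-1.71 to 0.18). Parp9 and Parp14, ADP-ribosyltransferases of the macrodomain type, had -0.18 (-0.54 to 0.18) and 0.01 (-0.31 to 0.33). Rsad2, the viperin gene, had 0.74 (-0.68 to 2.16, adjusted p = 0.43) with overlapping groups, since deleted 4 at -5.76 lay below control 3 at -5.55. Rsad2 was under the 40th percentile in both controls and over it in 2 of 3 deleted arrays, so its size is uncertain. Mx1 exceeded that percentile in 1 deleted and 1 control array.

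The deleted arrays took a different order in these genes than in all genes tested. Of the 34 members 25 were highest in deleted 7, against 24.1% of all genes tested, and 24 were lowest in deleted 4, against 32.6%. Deleted 5 was highest for 5 members, against 50.5% of all genes, and deleted 7 lowest for 1, against 43.1%. Set against the control mean, the median member stood at -0.25 in deleted 4, 0.05 in deleted 5 and 0.43 in deleted 7, and the median of all genes tested at 0.09, 0.18 and 0.03. The median SD over the deleted arrays was 0.51 for members and 0.22 for all genes. In 13 members deleted 7 exceeded the mean of deleted 4 and 5 by at least 1 log2 unit, which 4.43% of all genes did. Ifit1 exceeded it by 1.69, Oas1a by 1.85, Oasl2 by 1.37, Usp18 by 1.27, Isg15 and Zbp1 by 1.17 each, Rtp4 by 1.06 and Xaf1, a pro-apoptotic partner of XIAP, by 2.20. Samhd1 and Sp100, which rose in every deleted culture, did not share this order, with differences of -0.24 and -0.18. Deleted 7 was highest in 25 to 32 of 34 members over the scalings tried. The highest count came without scaling, where it was highest for 59.6% of all genes too. Genes of a list like this may vary together, so the members are not independent counts.

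**Figure D3:**
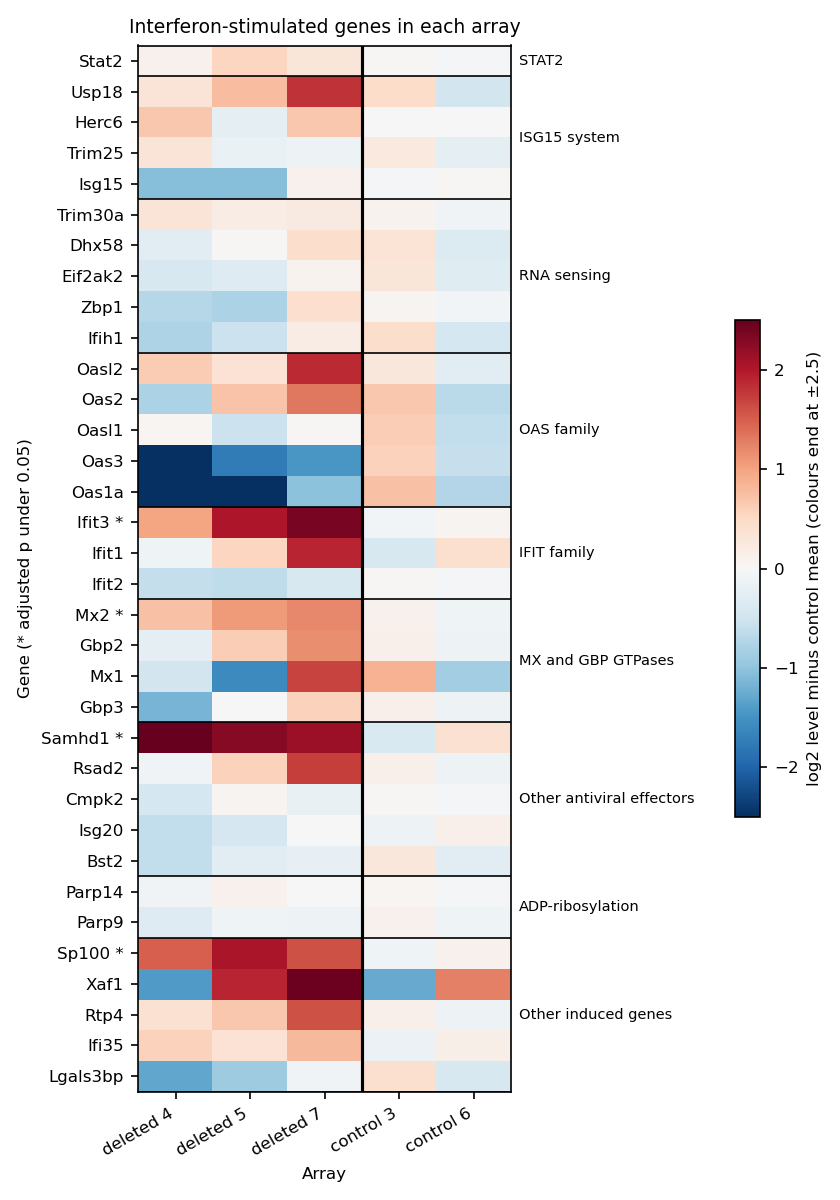
Difference of each interferon-stimulated gene (rows, by role) from its control mean in each array (columns), in log2 units, red for higher and blue for lower, with the 3 deleted arrays left of the line, the 2 controls right of it, and asterisks at the 4 genes past the threshold. Red gathers in the deleted 7 column, with a median difference of 0.43, and blue in the deleted 4 column, with -0.25.

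**Figure D4:**
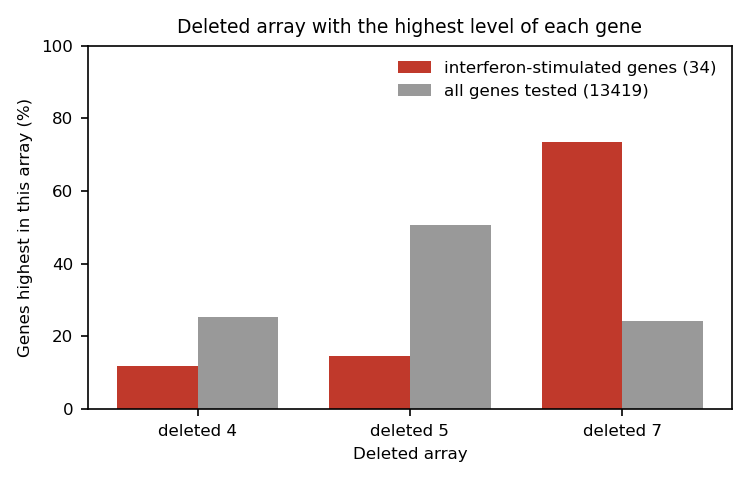
Share of genes (vertical axis, percent) whose highest level among the 3 deleted arrays was in the array named on the horizontal axis, for the 34 interferon-stimulated genes and for all 13419 genes tested. Deleted 7 was highest for 73.5% of the interferon-stimulated genes, against 24.1% of all genes.

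The controls differed as well. Control 3 exceeded control 6 in 25 of 34 members, against 48.5% of all genes tested, by 1.48 in Oas1a, 1.35 in Oas2, 1.22 in Oasl1 and 0.93 in Usp18. Xaf1 ran the other way, with control 3 minus control 6 at -2.505, and its levels of -3.12, 0.21 and 0.75 in deleted 4, 5 and 7, against -2.95 and -0.45 in control 3 and 6, gave a 95% interval of -1.98 to 3.95 for its log2 fold change of 0.98. For Xaf1, Oas2 and Oasl1 the controls lay further apart than the group means. The same held for Ifit1, Dhx58, Trim25, Parp14, Mx1, Parp9, Gbp3, Eif2ak2, Bst2, Ifih1 and Lgals3bp. The median half-width of the 95% interval was 0.86 for the members and 0.53 for all genes.

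Markers of other cells that may be in these cultures were read in the same arrays, as sums of linear levels relative to the 75th percentile. For macrophages 11 of 14 listed markers had a probe, and the sum was 3.10, 3.12 and 2.70 in deleted 4, 5 and 7, against 14.9 and 4.57 in control 3 and 6. C1qc, Mertk and Mrc1 stayed under the 40th percentile in every array, and of 6 macrophage markers tested Fcgr1 was higher and Itgam lower in deleted cells. The dendritic cell markers, with Siglech, Clec9a and Cd209d dark everywhere, summed over 11 of 11 genes to 1.15, 3.82 and 0.925 in deleted 4, 5 and 7, against 0.823 and 1.48 in control 3 and 6. The stromal markers listed for OP-9 cells, with Dcn, Lum and Postn dark, summed over 14 of 14 genes to 2.18, 1.64 and 2.39 in deleted 4, 5 and 7, against 2.93 and 2.06 in control 3 and 6. Of the dendritic cell markers Ccr9 was higher and Flt3 lower, and of the stromal markers Sparc was higher. The NK cell markers summed to 8.64, 7.74 and 7.22 in deleted 4, 5 and 7, against 6.74 and 4.93 in control 3 and 6, with Klrd1 higher, Klrb1c and Nkg7 lower, and Gzma, Gzmb and Ncr1 dark everywhere. The erythroid sum, over 5 of 7 markers with Alas2 and Klf1 dark, was 0.395, 0.703 and 0.662 in deleted 4, 5 and 7, against 1.88 and 0.894 in control 3 and 6. NK cell sums were thus higher, and erythroid and macrophage sums lower, in every deleted array than in both controls. The T cell sums (0.352 to 0.376 in deleted and 0.345 to 0.403 in control arrays) and the granulocyte sums (0.114 to 0.146 and 0.120 to 0.123) overlapped between the groups, with Cd3g higher and Zap70 lower. In deleted 7, where most members were highest, the macrophage, dendritic cell, NK cell and granulocyte sums were the lowest of the deleted arrays. The stromal and T cell sums were the highest there, and the erythroid and B-lineage sums lay between those of deleted 4 and 5. The B-lineage sums were 734, 977 and 850 in deleted 4, 5 and 7, against 1941 and 1790 in control 3 and 6. The part of these cells in the differences between arrays and groups was not tested.

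Around the list, 92 further genes of interferon biology were tested, of 115 symbols listed, a few of them older names of listed genes, and 19 were higher and 10 lower in deleted cells, beside 8.58% and 8.74% of all genes tested. Their median log2 fold change was 0.18, against 0.10 over all genes. Of the interferons, 10 of 12 had a probe and 4 passed the filter, none past the threshold. Ifnb1, Ifna2, Ifna4 and Ifna11 were among those too dim to test, and Ifng, the type II interferon, was not called (log2 fold change 1.01, SE 0.58, adjusted p = 0.28). Among 6 receptor genes, Ifnlr1, which binds lambda interferons, fell 20.3-fold, at -3.99, -3.94 and -4.61 in deleted 4, 5 and 7, against 0.73 and -0.41 in control 3 and 6 (log2 fold change -4.34, SE 0.40, adjusted p = 0.0019). Ifngr1, a chain of the type II interferon receptor, rose 1.87-fold (adjusted p = 0.017), a call lost without control 3 (0.117) or control 6 (0.070). Neither type I receptor chain passed, with 0.04 (95% interval -0.37 to 0.46) for Ifnar1 and -0.69 (adjusted p = 0.067) for Ifnar2. Ifnar2 passed under 4 alternatives, for example without scaling (limma adjusted p = 0.036).

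Of 10 signalling genes 1 was higher, the kinase gene Jak1, which rose 2.60-fold (log2 fold change 1.38, SE 0.17, adjusted p = 0.0046). Irf9, the DNA-binding partner of STAT2, had a log2 fold change of 0.28 (adjusted p = 0.21). Irf7, itself induced by interferon, was at -0.50, -0.45 and 0.75 in deleted 4, 5 and 7, against -1.61 and -1.16 in control 3 and 6 (log2 fold change 1.31, SE 0.41, adjusted p = 0.073). Deleted 7 was highest for Irf7, but for only 2 of these 10 genes, for 0 of 6 receptor genes and 0 of 7 negative regulators, and for 28 of 55 other induced genes. Of 10 sensing genes, the endosomal RNA receptor gene Tlr7 rose 11.8-fold (log2 fold change 3.55, SE 0.24, adjusted p = 0.00073) and Sting1, the adaptor for cytosolic DNA, 2.10-fold (adjusted p = 0.024), while the kinase gene Ikbke fell 3.36-fold (adjusted p = 0.013). The Sting1 call was lost without deleted 4 (limma adjusted p = 0.057), deleted 5 (0.065) or control 3 (0.167), and the Ikbke call without control 3 (0.093). Of 7 negative regulators, 3 rose: Socs3 by 5.01-fold (adjusted p = 0.0014), Ptpn6 by 2.91-fold (0.0040) and Ptpn1 by 1.67-fold (0.029). The Ptpn1 call was lost without deleted 4 (0.065), deleted 5 (0.053), control 3 (0.198) or control 6 (0.068), and the mean of the Ptpn6 probes gave a log2 fold change of 0.87 that did not pass (limma adjusted p = 0.079).

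Among 55 other interferon-induced genes, 12 rose and 8 fell, beside the same 8.58% and 8.74%. Slfn9, of the Schlafen family, was under the 40th percentile in each control and at least 8.08-fold higher in deleted cells, and Slfn2 rose 3.55-fold (adjusted p = 0.0055). In the other direction, Ifitm1, a membrane protein that blocks virus entry, was at 0.20, 0.91 and 1.84 in deleted 4, 5 and 7, against 4.42 and 3.68 in control 3 and 6, and fell 8.38-fold (adjusted p = 0.0087). That call was lost without control 3 (limma adjusted p = 0.063). Iigp1, an immunity-related GTPase, fell 8.13-fold (adjusted p = 0.0053), with 2 of 3 deleted arrays over the 40th percentile. Gbp6 and Nlrc5 (an activator of MHC class I genes) had log2 fold changes of -2.88 and -2.85, each passing with all arrays and lost without control 3 (adjusted p = 0.051 and 0.139). Of the 3 deleted arrays, 1 had Gbp6 over the 40th percentile, so its size is uncertain. Gbp6 was also lost without control 6 (0.055) and Nlrc5 without deleted 5 (0.062). In all, 22 of the 29 calls among these 92 genes were lost under at least 1 of the 16 alternatives, and Tlr7, Socs3, Jak1, Slfn2, Slfn9, Ifnlr1 and Iigp1 were the 7 that never were. The counts were 6 higher and 2 lower without control 3, where 2.97% and 2.37% of all genes were called. They were 12 and 8 without control 6 (5.48% and 5.53% of all genes) and 12 and 5 without deleted 5 (4.47% and 5.25%).

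**Figure D5:**
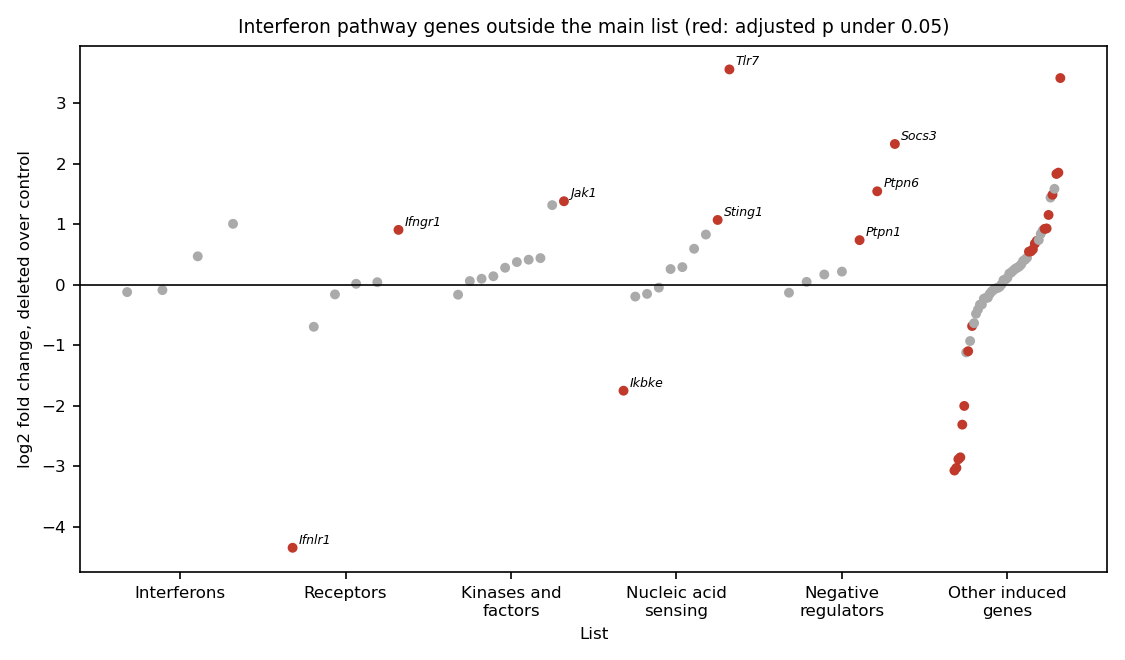
Log2 fold change (vertical axis, deleted over control) of 92 interferon pathway genes outside the main list, grouped by role (horizontal axis, ordered by value within a role), with red for an adjusted p under 0.05 and gene names for the red points of the first 5 roles. Tlr7 lies highest at 3.55 and Ifnlr1 lowest at -4.34.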

How the data were processed

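The authors deposited 1 linear intensity per feature and array (45018 features, 5 arrays, 1 colour), and the submitters' processing notes name Agilent Feature Extraction. Its version and its treatment of background and flagged spots are not given in these sources. Of the features, 33653 have 1 symbol in the platform annotation, 56 several and 11309 none. Intensities were divided by the array's 75th percentile and log2 was taken, over all features since control spots are not marked. Each gene was read at the probe with the highest mean, filtered at the 40th percentile in at least 2 arrays, and fitted in limma 3.58.1 under R 4.3.3 (lmFit, then trended eBayes, two-sided, Benjamini-Hochberg, threshold 0.05). Every adjusted p is from limma. That percentile stands in for detection flags and sets the "at least" folds. The fit was tested on simulated data. Members and lists were chosen with earlier results of these data known. By rule any member may be named, with full values for those past the threshold and the largest change of each role, and pathway genes past it or with their list's largest change. Irf7, Irf9, Ifnar1 and Ifnar2 were named after their values were seen. The alternatives were scaling, filter, probe rule, variance model, a floor and each array left out. Slides were not known, so no slide block was fitted.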

Additional observations from a re-analysis of the deposited data

How the results depend on the processing

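Over 16 alternatives the count of higher members was 3 or 4 except where an array was left out, which gave 2 to 4, while 2.97% to 11.5% of all genes were higher. Leaving out an array gave 0 to 2 lower members (Isg15 and Oas1a without deleted 7) and array weights gave 1, Oas3 (log2 fold change -2.196, adjusted p = 0.048). The median of the members ranged from -0.21 without control 6 to 0.34 without control 3. Without scaling the median of all genes was -0.036, against 0.096, and that of the members -0.095. Ifit3 also lost its call without the variance trend (adjusted p = 0.058) and with array weights (0.056), and Mx2 without scaling (0.072). With 1 control left, that sample is assumed to vary like the others.

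Over all members, called or not, the sign changed in 28 of 535 results, each of them in a member without a call. For Dhx58 the log2 fold change was -0.0703 without scaling, -0.518 with the mean of probes and -0.0327 with array weights, and -0.28 to 0.40 with an array left out. For Parp14 it was -0.12 without scaling, -0.0876 with quantile normalization and -0.0287 with array weights, and -0.0387 to 0.0588 with an array left out. For Trim25 it was -0.124 without scaling and -0.0048 with quantile normalization, and -0.24 to 0.26 with an array left out. The mean of probes gave Ifih1 0.0137, Mx1 0.172 and Parp9 0.0579, and the floor gave Mx1 0.0016. Leaving out an array gave ranges of -0.58 to 0.28 for Gbp3, -0.99 to 0.62 for Mx1, -0.76 to 0.46 for Oasl1, -0.26 to 1.09 for Oas2, -0.52 to 0.0855 for Eif2ak2, -0.82 to 0.0691 for Ifih1 and -0.27 to 2.24 for Xaf1. Ifnar1 was -0.0897 without scaling and -0.0340 with quantile normalization, and -0.18 to 0.26 with an array left out. The cause was not tested.

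Alternatives for the array order and for the pathway genes were added after seeing the data. Between 23 and 25 members were highest in deleted 7 with a control left out. Over the settings tried, 21 to 25 of the 30 to 34 members tested were higher in control 3 than in control 6. The share over all genes ran from 40.1% with median scaling to 57.5% without a filter. Pathway genes gave 6 to 14 higher and 2 to 9 lower with an array left out, and 12 higher without scaling. No paired analysis was made, since nothing in the labels pairs a deleted culture with a control culture.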
